A study of Mus musculus with 25 samples.

Results

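Zeb2 and its antisense partner Zeb2os were followed through all 25 RNA sequencing libraries of a mouse spinal cord injury series. Zeb2 encodes a transcription factor, the zinc finger E-box-binding homeobox protein 2, and Zeb2os is a long non-coding RNA read from the opposite strand of the same locus. The 2 genes were chosen by name from the 43693 genes of the table of sorted cells, with identifiers ENSMUSG00000026872.17 for Zeb2 and ENSMUSG00000052248.15 for Zeb2os, and were found in the other 3 tables by the same identifiers. The series asks how astrocytes change after spinal cord injury and names Zeb2os as a candidate in that response.

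Cells labelled astrocytes were sorted by their red fluorescence from the injury site of mice of the genotype GFAP-Cre-/+:R26-tdT-/+, in which a recombinase under the Gfap promoter switches on tdTomato for good in a cell and its descendants. Sham mice had the bone over thoracic level T9 removed and were taken at 7 days (3 libraries). Injured mice received a contusion of 60 kdyn at T9 and were taken at 7 days (3 libraries), 1 month (3) or 3 months (2, replicates 1 and 3). The 1-month and 3-month groups had no sham of their own age. Whole tissue of the injury site came from C57BL/6 mice 1 month (3) and 3 months (3) after the same contusion, with no sham tissue. Each sorted or tissue library pooled 3 mice. Cultured astrocytes came from the brains, not the spinal cords, of C57BL/6 pups of postnatal day 4 to 7. They received a control lentivirus or one directed against Zeb2os (the Zeb2os set) or against Zeb2 (the Zeb2 set), with 2 libraries in each of the 4 groups, and puromycin at 1 ug/ml from 24 hours after infection in the Zeb2os set and from 48 hours in the Zeb2 set. The labels call these treatments knockdowns, and in the genotype field write -/- for the same libraries. Nothing says that the cultures were separate, so their p-values speak for the scatter of those libraries, possibly a technical one.

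ZEB2 binds paired CACCT elements and, with the corepressor CtBP and the NuRD chromatin complex, shuts down genes of epithelial junctions such as E-cadherin. It also binds receptor-activated SMAD proteins, through which it dampens TGF-beta and BMP signals. Its best known role is in epithelial-mesenchymal transition, and in the nervous system it is known from oligodendrocyte maturation, from the identity of microglia and other macrophages, and from reactive astrocytes. At the human gene, an antisense RNA has been described that keeps an intron in the leader of the ZEB2 message and so raises its translation, a step that gene counts do not measure.

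In the mouse (GRCm38, chromosome 2) Zeb2 lies on the minus strand from 44983632 to 45117395, with 29 annotated transcripts, and Zeb2os lies on the plus strand from 45110707 to 45114087, with 6. Zeb2os ends 3308 bases inside the Zeb2 gene, so it lies wholly within the first part of its partner. Zeb2os has 1990 exonic bases, of which 653 (32.8%) face Zeb2 exons, and these are 3.27% of the 19942 exonic bases of Zeb2. The shared stretch holds none of the 3 annotated Zeb2 start codons. Of the 29 Zeb2 transcripts, 17 begin inside the span of Zeb2os. Zeb2os spans 3 small RNA models of unassigned class, Gm27761, Gm27404 and Gm27645.

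**Figure D1:**
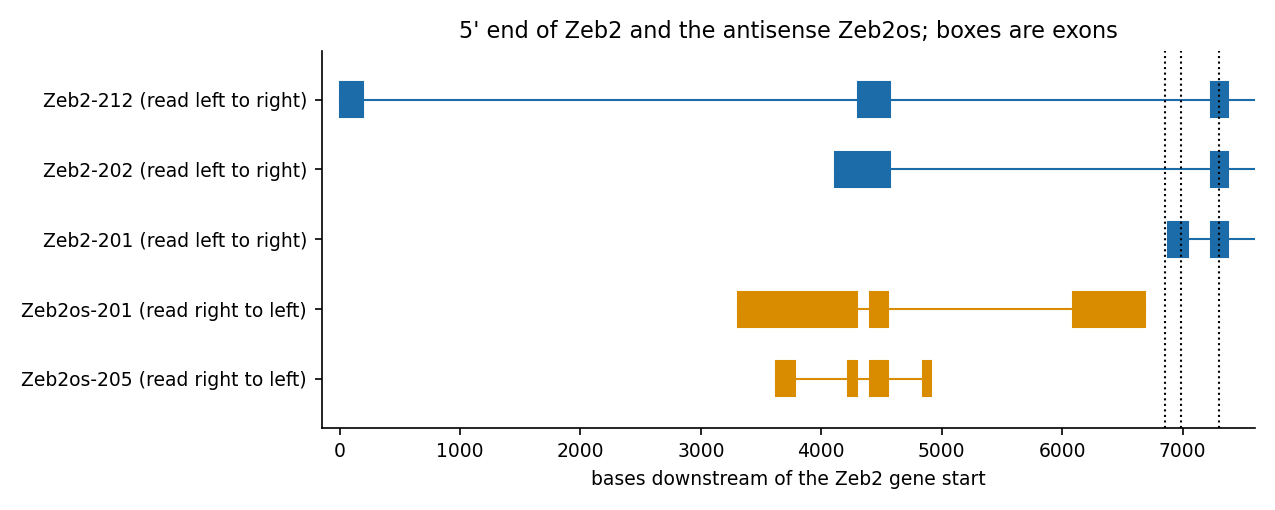
Exons (boxes) of 3 Zeb2 and 2 Zeb2os transcripts by distance in bases downstream of the Zeb2 gene start, with Zeb2 read to the right, Zeb2os to the left, and dotted lines at the 3 annotated Zeb2 start codons. Zeb2-202 starts inside the long Zeb2os-201 exon, and every start codon lies beyond the Zeb2os exons.

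The sequences shown are those by which the 2 genes can be told apart or overlap: a Zeb2 promoter outside Zeb2os, a Zeb2 promoter inside it, and the end of Zeb2os that faces no Zeb2 exon. RefSeq (GRCm38.p6) lists 4 Zeb2 starts, and its promoter table matched 1 of the 2 genes. Bases in capitals in the promoters are CACCT or its reverse complement AGGTG, the core ZEB element, in the 250 bases before the start.
Zeb2 start 1, chr2:45117443-45117692, minus strand: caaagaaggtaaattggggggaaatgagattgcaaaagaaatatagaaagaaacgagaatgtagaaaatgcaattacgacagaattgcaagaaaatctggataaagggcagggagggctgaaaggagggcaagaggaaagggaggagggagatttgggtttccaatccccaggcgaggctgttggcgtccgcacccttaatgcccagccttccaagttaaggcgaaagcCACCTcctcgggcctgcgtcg
Zeb2 start 2, chr2:45113280-45113529, minus strand: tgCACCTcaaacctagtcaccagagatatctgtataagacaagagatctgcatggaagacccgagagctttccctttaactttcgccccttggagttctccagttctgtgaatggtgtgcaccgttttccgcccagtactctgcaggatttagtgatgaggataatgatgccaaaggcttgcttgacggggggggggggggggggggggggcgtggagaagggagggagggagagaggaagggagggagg
Zeb2os-201, last 200 bases, chr2:45113888-45114087, plus strand, with the small RNA model Gm27645 in capitals: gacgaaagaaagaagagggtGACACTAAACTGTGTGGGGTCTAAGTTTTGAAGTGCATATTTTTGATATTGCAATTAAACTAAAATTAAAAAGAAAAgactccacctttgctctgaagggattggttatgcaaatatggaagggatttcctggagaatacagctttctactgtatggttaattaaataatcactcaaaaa
Start 1 shares no base with Zeb2os, while all 250 bases before start 2 lie within Zeb2os exons on the other strand. Starts 1, 2 and 3 each had 1 CACCT element on either strand and start 4 had none, against 46% of 32851 RefSeq promoters of the same length with at least 1. The longer form CACCTG, or CAGGTG on the other strand, was in none of the 4 and in 17.2% of all promoters. These are matches of letters and not measured sites.

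Depth ran from 15.7 to 50.2 M counts in the sorted libraries, 15.4 to 27.1 M in tissue, 45.6 to 158.1 M in the Zeb2os set and 29.0 to 65.4 M in the Zeb2 set. Zeb2 had at least 471 and Zeb2os at least 108 counts in every library. The sorted cells matched their label only in part. The summed level of 10 astrocyte markers was 3744 to 4995 CPM (counts scaled to library size, with TMM factors) in sham and 895 to 1173 CPM at 1 and 3 months, against 9842 to 13114 CPM in tissue, while 10 markers of oligodendrocyte precursors, which can also arise from Gfap-expressing progenitors, summed to 9571 to 16108 CPM in sorted cells and 851 to 1098 CPM in tissue. No marker of either list was at 0 across a sorted or tissue group. The sorted libraries therefore held RNA of more than one cell type, and whether it came from tdTomato-positive cells or was carried over was not tested. In such bulk samples, fewer cells of a type and less RNA per cell cannot be told apart.

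Zeb2 was a moderately expressed gene in every kind of sample, and its level was lowest where it had been targeted. Levels are given in CPM scaled within each table, so the order across tables is a description. The 3 injured sorted groups came first, with group means of 366 to 377 CPM and overlapping ranges. Sham sorted cells (191 ± 52.1 CPM, SD, n = 3), the controls of the Zeb2 set (140 ± 9.44, n = 2), tissue at 3 months (137 ± 16.8, n = 3) and tissue at 1 month (136 ± 12.2, n = 3) followed, each overlapping the next. Lower still were the controls of the Zeb2os set (61.0 ± 13.0, n = 2) and the libraries labelled Zeb2os knockdown (53.7 ± 5.32, n = 2), which overlapped, and last the Zeb2 knockdown cultures (19.7 ± 5.01, n = 2). Divided by exon length, the Zeb2 level ranked at percentiles 76.7 to 86.6 of detected coding genes in the 8 injured sorted libraries, 56.6 to 71.1 in sham and 29.3 to 35.8 in the Zeb2 knockdown.

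Zeb2os had a different order among injured sorted groups. It was highest at 3 months (32.9 ± 2.06 CPM, n = 2), above and clear of 1 month (26.7 ± 3.79, n = 3) and 7 days (25.2 ± 1.77, n = 3), which overlapped each other. Tissue at 1 month (14.9 ± 2.11), sham sorted cells (13.2 ± 4.60) and tissue at 3 months (12.9 ± 0.761; n = 3 each) formed an overlapping middle. All 8 cultures, controls included, lay between 3.14 and 6.00 CPM. Per kb of exon, Zeb2os was at 4.35 to 17.2 CPM and Zeb2 at 7.03 to 21.8 CPM over the 11 sorted libraries, and within a library the Zeb2os level per kb was 60.1% to 94.5% of that of Zeb2 (median 73.1%). Its level stood at percentiles 78.6 to 94.4 of detected long non-coding RNAs in sorted cells. Values per kb divide by all annotated exonic bases, 19942 for Zeb2 over 29 transcripts and 1990 for Zeb2os over 6. No single transcript holds them all, so the share and the percentiles depend on this choice of length. A shorter length for Zeb2 alone would lower the share, and lengths of single transcripts were not tried.

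**Figure D2:**
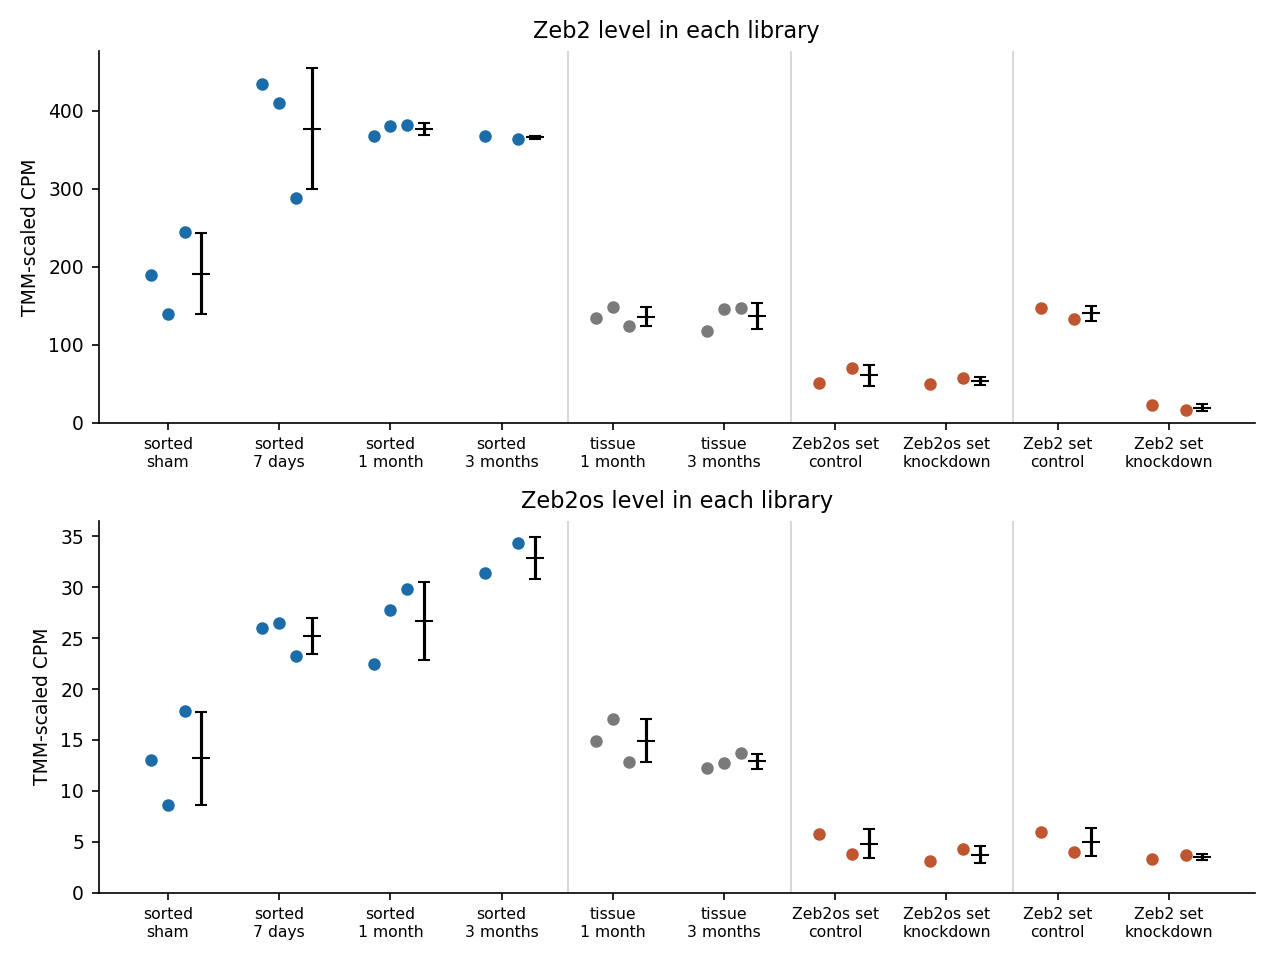
TMM-scaled CPM of Zeb2 (top) and Zeb2os (bottom) in each of the 25 libraries (points), with the group mean and SD beside them (black). Injured sorted cells lie above sham for both genes, and the Zeb2 knockdown libraries, at 23.2 and 16.1 CPM of Zeb2, lie below all others for Zeb2 but not for Zeb2os.

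Zeb2 rose about 2-fold in sorted cells after injury and its level then stayed in the same range to 3 months. In sham, replicates 1 to 3 had 189, 140 and 244 CPM. At 7 days the level was 434, 409 and 289 CPM, at 1 month 367, 381 and 382 CPM, and at 3 months 368 and 364 CPM. Every injured library was above every sham library, with the nearest pair being sham replicate 3 and 7-day replicate 3. The log2 change against sham was 0.98 ± 0.20 (SE) at 7 days, or 1.97-fold (edgeR adjusted p = 0.0028), 0.98 ± 0.20 at 1 month (adjusted p = 0.0045) and 0.94 ± 0.22 at 3 months (adjusted p = 0.0112). All 3 comparisons share the sham libraries. The rise was of ordinary size for this table: of 24286 genes, 18.3% were called at 7 days (9.87% higher, 8.41% lower), 12.1% at 1 month (6.23% and 5.83%) and 11.7% at 3 months (6.78% and 4.93%), and 37.8% of genes had a larger change than Zeb2 at 7 days. Leaving out 3-month replicate 1 (adjusted p = 0.0547) or replicate 3 (0.0767), or fitting sham and 3 months without the other times (0.103), ended the 3-month call.

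Among the injured times Zeb2 did not differ beyond its error. Its log2 difference was -0.0031 ± 0.20 between 1 month and 7 days (95% interval -0.43 to 0.42), -0.04 ± 0.22 between 3 months and 7 days (-0.52 to 0.43) and -0.04 ± 0.22 between 3 months and 1 month (-0.52 to 0.44). The background of calls was 2.61%, 6.05% and 0.387% of genes in these comparisons.

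Zeb2os rose alongside, and its largest fitted change was at 3 months. Sham replicates 1 to 3 had 13.0, 8.66 and 17.9 CPM. The 7-day libraries had 26.0, 26.5 and 23.2 CPM, the 1-month libraries 22.4, 27.8 and 29.8 CPM and the 3-month libraries 31.4 and 34.3 CPM. No injured library fell into the sham range. The log2 change against sham was 0.94 ± 0.25 at 7 days (edgeR adjusted p = 0.0154), 1.02 ± 0.25 at 1 month (0.0140) and 1.32 ± 0.28 at 3 months (0.0048), the last a 2.50-fold rise. These calls were near the threshold: that of 7 days ended without 7-day replicate 1 (0.0513) or replicate 2 (0.0601), that of 1 month without 1-month replicate 2 (0.0539) or replicate 3 (0.0668), and all 3 where sham and a single injured time were fitted by themselves (0.0576, 0.0610 and 0.0825). Between 3 months and 7 days the log2 difference was 0.38 ± 0.28 (95% interval -0.21 to 0.97, adjusted p = 0.478), and between 3 months and 1 month 0.30 ± 0.28 (-0.29 to 0.89, adjusted p = 0.719), so the higher 3-month values were not told apart from the earlier ones. Between 1 month and 7 days it was 0.08 ± 0.25.

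**Figure D3:**
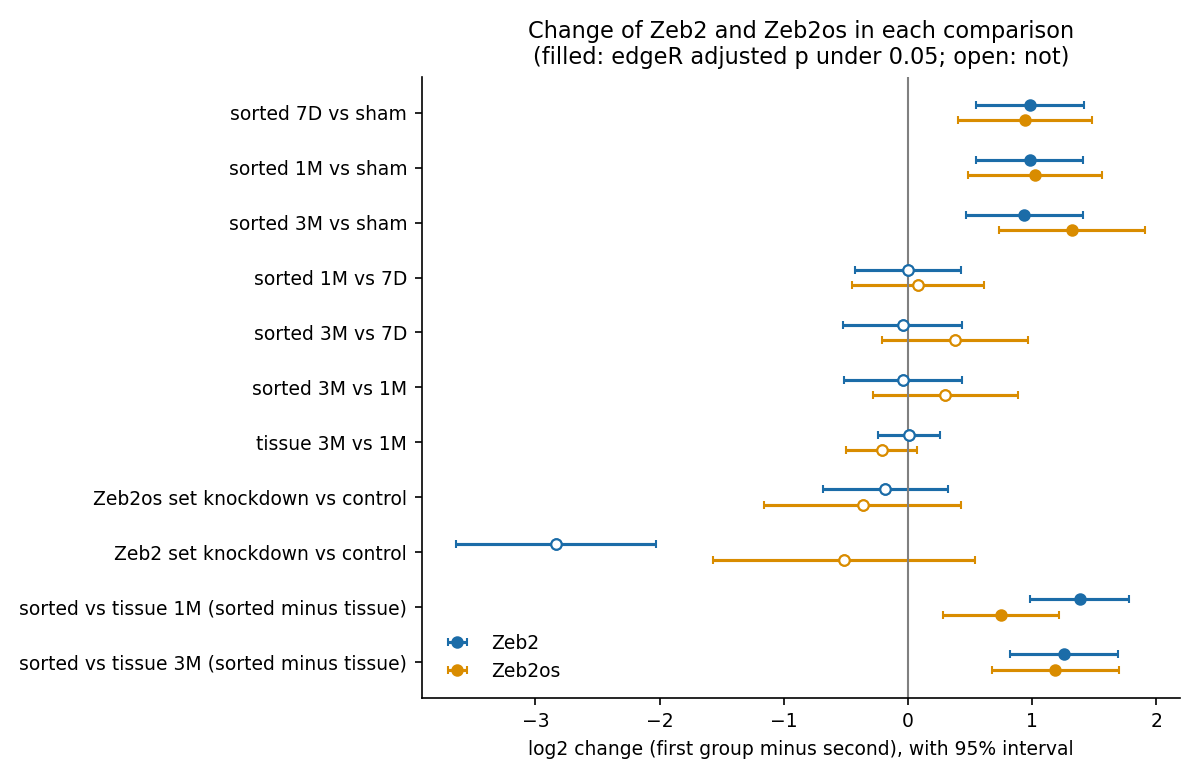
Fitted log2 change of Zeb2 (blue) and Zeb2os (orange) in each comparison, with 95% intervals and filled points where the edgeR adjusted p was under 0.05. The 6 intervals against sham lie above 0, from 0.40 at the lowest bound, and the interval of Zeb2 in its own knockdown, -3.64 to -2.03, lies below 0 although its point is open.

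Markers of other cell types moved with this rise. The summed level of 14 microglia and macrophage markers ran from 485 to 2368 CPM in sham. After injury it lay between 4113 and 5405 CPM at 7 days, between 3832 and 6165 CPM at 1 month and at 8727 and 12069 CPM at 3 months, and 11, 11 and 12 of the 14 rose against sham. No marker of this list was at 0 across any group. Endothelial markers (67.1 to 195 CPM in sham, 305 to 724 CPM after injury) and fibroblast and mural markers (855 to 1438 and 2043 to 4238 CPM) were also higher, 10 and 5 of 10 being called at 7 days, while 9 of 10 astrocyte markers fell at 7 days and at 1 month, the exception at 7 days being Gfap, which rose (2.40 ± 0.25). All 10 ependymal markers fell at 7 days, 9 at 1 month and 6 at 3 months (1341 to 2494 CPM in sham, 446 to 1013 CPM after injury), and of 10 Schwann cell markers 3, 4 and 2 rose (557 to 1819 CPM in sham, 1098 to 2661 CPM after injury). Against these counts, 9.87% of all genes rose and 8.41% fell at 7 days, 6.23% and 5.83% at 1 month, and 6.78% and 4.93% at 3 months. The part of the cell types named here in the rise of Zeb2 and Zeb2os was not tested. Sham replicate 3 had the highest Zeb2 and Zeb2os of the sham libraries and the lowest microglial sum (485 CPM). From 7 days to 3 months the microglial sum went from a mean of 4763 to 10398 CPM, while the Zeb2 log2 difference was -0.04 ± 0.22. Zeb2os was highest in the 3-month libraries, which also had the highest microglial sums, and the injured library with the lowest Zeb2os, 1-month replicate 1, had the lowest sum (3832 CPM) of the injured libraries.

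**Figure D4:**
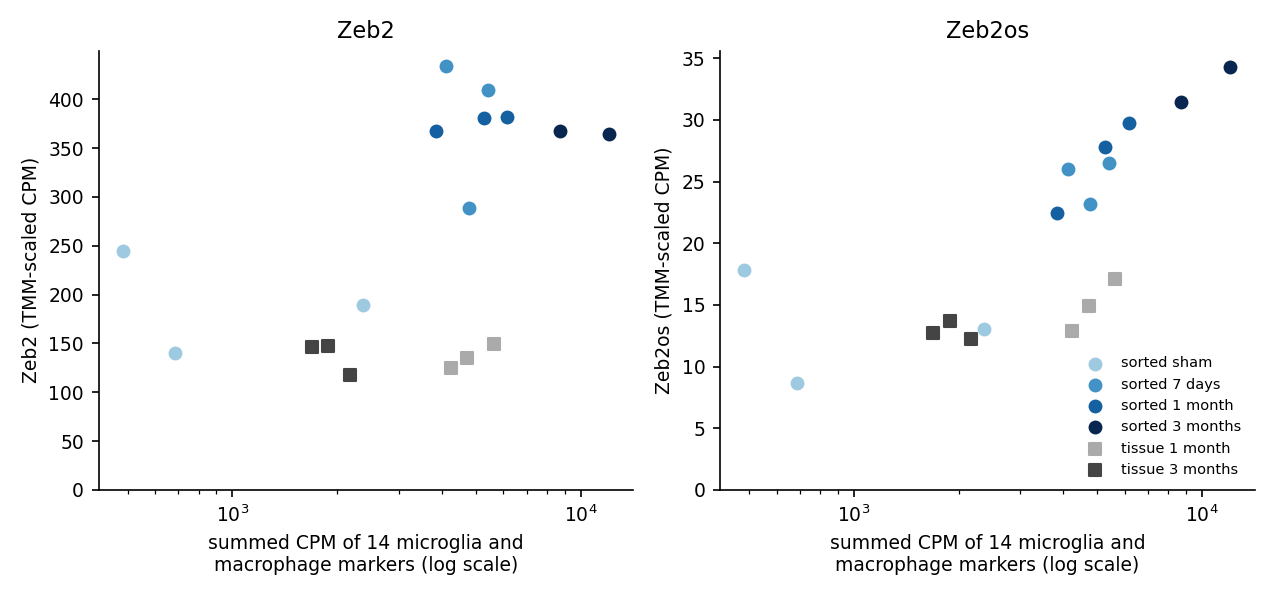
Zeb2 (left) and Zeb2os (right) in TMM-scaled CPM against the summed CPM of 14 microglia and macrophage markers (log scale) in the 11 sorted (circles) and 6 tissue (squares) libraries. Over the injured sorted libraries the highest Zeb2os, 34.3 CPM, is at the highest marker sum, 12069 CPM, while Zeb2 stays between 289 and 434 CPM.

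Across the 8 injured sorted libraries Zeb2 and Zeb2os did not follow each other (Pearson r = 0.24, exact permutation p = 0.590; Spearman rho = 0, exact permutation p = 1). Without the 2 libraries farthest from the median of Zeb2, 7-day replicates 3 and 1, r was -0.26. Sham libraries were left out of this correlation, since they form a cluster of their own for both genes. With 8 libraries a moderate relation was not detectable.

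In tissue the level of Zeb2 at 3 months was that at 1 month. Replicates 1 to 3 had 135, 149 and 125 CPM at 1 month and 117, 146 and 147 CPM at 3 months, and the ranges overlapped. The log2 difference was 0.0056 ± 0.11 (95% interval -0.24 to 0.25, edgeR adjusted p = 0.978), in a table where 14.7% of 19652 genes were called (8.01% as lower). Zeb2os had 14.9, 17.1 and 12.9 CPM at 1 month and 12.2, 12.7 and 13.7 CPM at 3 months, a log2 difference of -0.21 ± 0.12 (-0.50 to 0.07, adjusted p = 0.277). Over the same interval 12 of the 14 microglia and macrophage markers fell, the summed level being 4241 to 5644 CPM at 1 month and 1693 to 2169 CPM at 3 months. Of 14 reactive astrocyte genes, 7 fell and none rose. Among neuron markers Syt1, Nefl, Nefm, Stmn2 and Slc17a6 rose, the summed neuron level being 3285 to 4349 CPM at 1 month and 4912 to 5631 CPM at 3 months. Zeb2 held its level in tissue while markers of some cell types fell and others rose. What part each cell type had in the tissue level of Zeb2 was not tested.

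Sorted cells had more Zeb2 and more Zeb2os than tissue of the same age after injury. In a joint fit of both tables, scaled together, the 3 sorted 1-month libraries had 360, 374 and 371 CPM of Zeb2 and the tissue libraries 141, 153 and 131 CPM, with no overlap and a log2 difference of 1.38 ± 0.19 (edgeR adjusted p = 1.86e-05). At 3 months the difference was 1.25 ± 0.21 (adjusted p = 0.000135). Zeb2os was at 22.0, 27.3 and 28.9 CPM in sorted cells and 15.5, 17.5 and 13.5 CPM in tissue at 1 month (log2 difference 0.75 ± 0.22, adjusted p = 0.0120), and the difference was 1.19 ± 0.24 at 3 months (adjusted p = 0.000946). The 1-month call of Zeb2os was lost without tissue 1-month replicate 3 (0.0612). Against these calls stand 39.3% of 24730 genes called at 1 month, 18.2% as higher and 21.1% as lower in sorted cells, and 37.3% at 3 months, 16.6% as higher and 20.7% as lower. The kind of sample is confounded with digestion and sorting, and with the genotype of the mice, and these cannot be told apart. All 10 oligodendrocyte precursor markers were higher in sorted cells at both times, and 9 of 10 astrocyte markers were lower. Summed markers of mature oligodendrocytes were lower in sorted cells at 1 month (means of 1551 against 27066 CPM in tissue). Neuron markers were lower too (177 against 3816 CPM), and ependymal markers were higher (521 against 101 CPM). These sums differed in the same directions at 3 months. The part of these cell types in the differences of Zeb2 and Zeb2os was not tested. Microglia and macrophage markers had no call at 1 month and 13 of 14 higher in sorted cells at 3 months.

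Zeb2os had 6.18 to 7.31 counts per 100 Zeb2 counts in the 3 sham libraries (6.79 ± 0.573, SD) and 6.00 to 9.43 in the 8 injured sorted libraries (7.46 ± 1.22). The log2 ratio differed by 0.12 between them (exact permutation test, two-sided, p = 0.436, Benjamini-Hochberg adjusted over 2 ratio tests 0.436). The 3-month libraries, at 8.55 and 9.43, had the highest ratios among sorted libraries. Tissue had 8.73 to 11.5 (10.2 ± 1.03, n = 6) against 6.11 to 9.43 (7.84 ± 1.26, n = 5) in sorted cells of 1 and 3 months, a log2 difference of 0.39 (exact permutation p = 0.0130, adjusted 0.0260), with overlapping ranges. This test pooled 1 and 3 months, and the difference lay mostly at 1 month: there sorted cells had 6.11 to 7.81 and tissue 10.3 to 11.5, with no overlap, whereas at 3 months sorted cells had 8.55 and 9.43 and tissue 8.73 to 10.4, with overlap. In the fitted log2 differences between sorted cells and tissue, Zeb2os minus Zeb2 was -0.63 at 1 month and -0.07 at 3 months. Whether these times differ was not tested. Whether reads from the shared exons were divided by strand is not given in the sources used here, although the library kit marks strand, so a part of the Zeb2os counts that came from Zeb2 messages cannot be told apart by these tables alone.

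**Figure D5:**
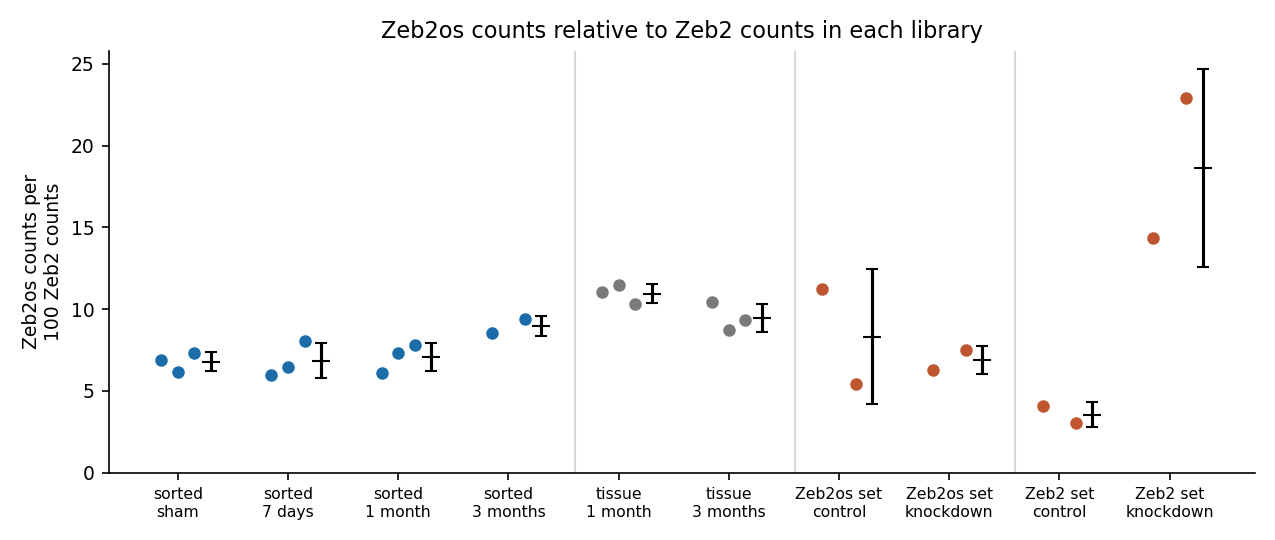
Zeb2os counts per 100 Zeb2 counts in each library (points), with group mean and SD (black). Sorted libraries lie between 6.00 and 9.43, the Zeb2 set moves from 4.08 and 3.03 in controls to 14.4 and 22.9 in knockdowns, and the 2 controls of the Zeb2os set stand apart at 11.2 and 5.42.

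In the cultures of the Zeb2 set, the targeted gene was low in both knockdown libraries. Controls had 147 and 134 CPM of Zeb2 (9039 and 6534 counts) and knockdowns 23.2 and 16.1 CPM (1080 and 471 counts), with no overlap. The fitted log2 change was -2.83 ± 0.33 (95% interval -3.64 to -2.03), a level 86.0% lower. It had the smallest p of 17600 genes tested (0.000147 before adjustment), but edgeR's adjusted p was 0.999 and no gene was called (0.0% of genes). At an unadjusted p under 0.05 there were 681 genes (3.87%). DESeq2 called 33 genes, Zeb2 among them (adjusted p = 2.73e-07), and adjusted p values for Zeb2 ran from 4.2e-08 to 1.00 over 8 alternatives, 6 of which called it. Leaving out control replicate 1 (adjusted p = 0.0436), knockdown replicate 1 (0.0418) or knockdown replicate 2 (0.0209) gave a call.

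Zeb2os did not fall in step with Zeb2 in these cultures. It was at 6.00 and 4.05 CPM in controls and 3.33 and 3.70 CPM in knockdowns, so both knockdown values were below both controls, but the log2 change of -0.51 ± 0.43 (95% interval -1.57 to 0.54, adjusted p = 0.999) was not called. Its counts per 100 Zeb2 counts went from 4.08 (exact 95% interval 3.67 to 4.53) and 3.03 (2.62 to 3.49) in controls to 14.4 (12.05 to 17.0) and 22.9 (18.4 to 28.3) in knockdowns, exact binomial intervals that cover counting error only. Counts assigned to Zeb2os thus did not move in proportion to Zeb2. Without control replicate 1 the change was -0.21, and over the other 3 libraries left out in turn it ran from -0.76 to -0.43. The interval of the Zeb2os change itself reached from -1.57 to 0.54, so a fall of Zeb2os smaller than that of Zeb2 (-2.83) was within it.

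The libraries labelled Zeb2os knockdown did not stand apart from their controls in the gene targeted. Controls had 5.82 and 3.80 CPM of Zeb2os (464 and 666 counts) and the libraries labelled knockdown 3.14 and 4.32 CPM (134 and 209 counts), and knockdown replicate 2 lay between the controls. The log2 change was -0.36 ± 0.35 (95% interval -1.16 to 0.43, edgeR adjusted p = 0.735), in a table where 39 of 20741 genes (0.188%) were called, 14 of them (0.0675%) as lower. The label was therefore not borne out by the counts assigned to the target, and the interval allows a fall of 1.16 or a rise of 0.43 on the log2 scale. Zeb2 exons face 32.8% of the exonic bases of Zeb2os, and the strand setting of the counts is not given. Zeb2 reads counted as Zeb2os could thus mask a fall of Zeb2os, and these counts cannot tell the 2 apart. The change was -0.02 without control replicate 1, -0.63 without control replicate 2, -0.16 without knockdown replicate 1 and -0.62 without knockdown replicate 2. The place that the lentivirus targets is not given in the sources used here. Zeb2 had 51.7 and 70.2 CPM in controls and 49.95 and 57.5 CPM in the libraries labelled knockdown, overlapping, with a log2 change of -0.18 ± 0.22 (-0.68 to 0.32, adjusted p = 0.796). The control libraries differed more in Zeb2os counts per 100 Zeb2 counts (11.2 and 5.42) than the libraries labelled knockdown (6.28 and 7.51). Control replicate 2 was the deepest library of the series, at 158.1 M counts.

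The effects on Zeb2 in the 2 culture sets were compared directly. The change in the Zeb2 set minus that in the Zeb2os set was -2.60 ± 0.40 on the log2 scale (95% interval -3.50 to -1.71), with an unadjusted p of 8.34e-05 from edgeR and an adjusted p of 0.287 in a fit that called no gene (0.0%; 1459 genes, or 7.05%, at an unadjusted p under 0.05). DESeq2 gave an adjusted p of 5.94e-05, and adjusted p ran from 5.94e-05 to 1.00 over 11 alternatives, 4 of which passed. For Zeb2os the same difference was -0.12 ± 0.56. Even the controls of the 2 sets differed in their Zeb2 level (51.7 and 70.2 against 147 and 134 CPM, each within its own table), and the sets differ in the time from infection to puromycin.

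Genes that work with or like ZEB2 showed a mixed picture in sorted cells, and the lists are described by their counts. These counts stand against the share of all genes called, which was 9.87% higher and 8.41% lower at 7 days, 6.23% and 5.83% at 1 month, and 6.78% and 4.93% at 3 months. Among 8 tested of 10 ZEB relatives and other factors of epithelial-mesenchymal transition, 3 rose at 7 days, 2 at 1 month and 3 at 3 months, and none fell (medians 0.60, 0.72 and 0.13; over all genes -0.06, -0.02 and -0.10). Zeb1, the paralog of Zeb2, was not among them. It was at 113 to 254 CPM in sham and 143 to 169 CPM at 7 days, with log2 changes of -0.34 ± 0.23, -0.22 ± 0.23 and -0.72 ± 0.26 at the 3 times (adjusted p = 0.359, 0.620 and 0.0936). Twist1 and Foxc2, both mesenchymal transcription factors, were called at every time from near-zero levels: Twist1 was at 0 to 0.0312 CPM in sham and 1.64 to 2.30 CPM at 7 days, and Foxc2 was at 0 in all sham libraries and 0.595 to 1.62 CPM at 7 days. Prrx1, a homeobox factor of mesenchyme, rose at 7 days (0.78 ± 0.20), and Snai1, the Snail repressor, was called at 3 months with 0 to 0.405 CPM in sham and 2.90 and 4.00 CPM at that time. Twist1, Foxc2 and Snai1, at or near 0 in sham, passed the filter through the injured libraries and could hardly have been called lower. The counts of rises and falls in this list thus rest largely on genes that could only rise.

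Of 8 SMAD genes, receptor-activated and other, none was called at 7 days or 1 month. Smad9 (-0.98 ± 0.33, adjusted p = 0.0514) and Smad6 (-0.92 ± 0.39, adjusted p = 0.13) still had values at 7 days of about the size of the Zeb2 change. At 3 months Smad7, the inhibitory SMAD, rose (1.00 ± 0.27), while the BMP-activated Smad9 (-1.43 ± 0.39) and Smad5 (-0.57 ± 0.18) fell. Of 13 genes of the CtBP and NuRD corepressors, 4 rose at 7 days: the deacetylase Hdac2 (0.74 ± 0.18), the histone-binding Rbbp7 (0.70 ± 0.16), Mta2 (0.62 ± 0.18) and the remodelling ATPase Chd4 (0.47 ± 0.14). At 1 month Mta2 (0.57 ± 0.18) and Gatad2b (0.52 ± 0.15) rose, and at 3 months none was called. The medians of this list were 0.42, 0.33 and 0.36.

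Most genes reported as ZEB2 targets for repression had no call at a given time, and the calls at 3 months went both ways. Of 11 genes 9 passed the filter, and at 7 days, where their median log2 change was -0.72, 3 fell: Gjb2, a connexin gene (-1.18 ± 0.39), the endothelin receptor Ednrb (-0.73 ± 0.19) and the progenitor factor Sox2 (-0.71 ± 0.23). None was called at 1 month. At 3 months Ednrb (-0.86 ± 0.21) and Hey2, a Notch effector (-1.21 ± 0.23), fell, but Gjb2 rose (1.80 ± 0.42). Whether any of these changes depends on Zeb2 was not tested. The summed astrocyte markers were also lower after injury (means of 4534 CPM in sham, 2320 CPM at 7 days and 995 CPM at 3 months). Their part in these changes was not tested. The sham libraries had between 6.61 and 8.53 CPM of Gjb2. At 7 days it was lower, between 2.48 and 4.25 CPM, then between 12.6 and 14.1 CPM at 1 month, with 11.8 and 39.6 CPM in the 3-month libraries.

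On the mesenchymal side, 6 of 10 genes rose at 7 days and none fell, 4 rose at 1 month, and 4 rose and 1 fell at 3 months (medians 0.87, 0.59 and 0.58). Itga5, the fibronectin receptor subunit, rose by 3.78 ± 0.41, 3.62 ± 0.41 and 3.97 ± 0.43, and its ligand Fn1 by 3.85 ± 0.49, 3.05 ± 0.47 and 3.24 ± 0.50. Cd44, the hyaluronan receptor, rose by 2.81 ± 0.40, 2.19 ± 0.39 and 2.86 ± 0.43. Tenascin C (Tnc) rose at 7 days (3.07 ± 0.42), and was lower at 3 months than at 7 days (-2.67 ± 0.49). The fall at 3 months was that of Cdh2, which encodes N-cadherin (-0.69 ± 0.20). Of 14 reactive astrocyte genes 10, 8 and 8 rose at the 3 times and none fell, among them the protease inhibitor Serpina3n (4.22 ± 0.35 at 7 days) and the interferon-induced chemokine Cxcl10 (3.13 ± 0.47 at 7 days and 4.39 ± 0.52 at 3 months). Cd44 and Vim stand in both of these lists, Acta2 is also a mural marker and Gfap also an astrocyte marker. Fibroblast, endothelial and microglial markers rose beside these lists, as given above, and their part was not tested.

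The cultures gave no call for these partners and targets. In the Zeb2 set no list had a called gene, in a fit that recovered 1% of simulated 2-fold changes. The median log2 change was 0.34 over the 11 reported repressed targets, 8 of which were above 0, and -0.39 over the 10 mesenchymal genes, 1 of which was above 0, against 0.03 over all genes. The largest values of the 2 lists were 3.36 ± 0.70 for Cldn4, a tight junction gene at 0.146 to 0.225 CPM in controls and 1.41 to 2.43 CPM in knockdowns (unadjusted p = 0.0032), and -1.35 ± 0.32 for the cadherin Cdh11 (unadjusted p = 0.0063). Cdh1, the E-cadherin gene, was under 1 CPM in all 4 libraries. The summed fibroblast and mural markers were 15117 and 8230 CPM in controls and 5387 and 6951 CPM in knockdowns, with no called member, and their part in these values was not tested. In the libraries labelled Zeb2os knockdown, Gfap (-1.55 ± 0.23, adjusted p = 0.0429) and Cxcl10 (-1.86 ± 0.25, adjusted p = 0.0306) fell among the 14 reactive genes. None of the other partner and target lists had a call. Over all genes of that fit 0.188% were called, 0.0675% as lower. The summed level of the 14 reactive genes was not lower. It was 7107 and 8826 CPM in the controls of the Zeb2os set and 9192 and 9485 CPM in the libraries labelled knockdown. The 10 astrocyte markers summed to 1258 and 1356 CPM in those controls and 675 and 649 CPM in the libraries labelled knockdown. Gfap is 1 of these 10, at 517 to 519 CPM in those controls and 160 to 194 CPM in the libraries labelled knockdown. A large part of the fall of this sum is thus that of Gfap itself. The 10 endothelial markers summed to 76.5 and 102 CPM in those controls and 160 and 157 CPM in the libraries labelled knockdown, with Esam, an endothelial adhesion molecule, called higher (1.71 ± 0.21, adjusted p = 0.0227). In the libraries labelled knockdown Cldn5 and Tie1 were at 0, and Pecam1, Vwf and Emcn were under 1 CPM. The endothelial sum thus rested on only part of its list. The part of either cell type in the fall of Gfap and Cxcl10 was not tested.

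Calls in the neighbourhood of Zeb2 differed from gene to gene, and few genes there could be tested. Of 10 annotated genes within 1.5 Mb, 3 passed the filter in sorted cells. Kynu, which encodes the tryptophan-breakdown enzyme kynureninase, was called at all 3 times, with 0 to 0.0936 CPM in sham, 0.252 to 1.26 CPM at 7 days and 2.82 and 3.90 CPM at 3 months. At such sham levels Kynu passed the filter through the injured libraries and could not have been called lower. Arhgap15, a Rac GTPase-activating protein, had log2 changes of 2.62 ± 1.03, 2.50 ± 1.03 and 2.75 ± 1.10 and was not called (adjusted p = 0.0972, 0.141 and 0.126). With 0 to 1.07 CPM in sham and errors this wide, the missing call does not show that Arhgap15 stayed unchanged. Gtdc1, a glycosyltransferase-like gene, had changes of 0.02 ± 0.21, 0.22 ± 0.21 and 0.37 ± 0.24. None of the 3 was called in tissue. In the cultures Gtdc1 alone passed the filter. It had 11.0 and 12.1 CPM in the controls of the Zeb2os set and 4.12 and 5.93 CPM in the libraries labelled knockdown, with no overlap but no call (-1.20 ± 0.28, unadjusted p = 0.0019, adjusted p = 0.151), and its change in the Zeb2 set was 0.01 ± 0.35.

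Other genes followed Zeb2 across the 11 sorted libraries more closely than Zeb2os did. By Pearson correlation of log2 CPM among 11985 genes with a mean of at least 10 CPM, the genes most like Zeb2 included Ch25h, a cholesterol hydroxylase (r = 0.97), the chemokine Cxcl2 (0.97), the growth factor Igf1 (0.96) and the transcription factor Bach1 (0.96), and Zeb2os came at rank 21 (0.94). The genes most like Zeb2os were Cxcl10 (0.99), Rasgef1b (0.99), the complement component C3 (0.99), Rab20 (0.99) and the G protein regulator Rgs16 (0.98), with Zeb2 at rank 90. These values describe 11 points that share the step between sham and injury, and carry no test.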

How the data were processed

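RNA was sequenced in 25 libraries, and the authors deposited 4 tables of raw, whole-number counts by gene. The tools named, per the submitters' processing notes, are TopHat2 2.1.0, Cufflinks 2.2.1, FastQC and DESeq2, with the mouse build mm10, and their roles are not stated. The counting program, annotation and strand setting are not given in the sources used here. Libraries were grouped by their labels. The Zeb2-set table gives identifiers only and was joined to the sorted table by them; 33 rows, holding 0.00161% of its counts, were not used here. No deposited column of values lacked a sample (0 unmapped).

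Each table was fitted alone with edgeR 4.0.16 in R 4.3.3 (filterByExpr at a minimum count of 10, TMM factors, quasi-likelihood F test, the groups of a table sharing 1 estimate of spread). Adjusted p is Benjamini-Hochberg over all genes tested, and a gene is called, and said to rise or fall, under 0.05. CPM uses TMM-scaled totals of the table. Joint fits served sorted cells against tissue and the 2 culture sets, and ratios were tested by exact permutation in scipy 1.17.1. Zeb2 and Zeb2os exons, positions and lengths are from GENCODE vM21 (33340 of 33489 Ensembl identifiers matched). Alternatives were DESeq2 1.42.0, relative-log-expression (RLE) factors, no filter, a replicate block, 2 groups alone and leaving out each library. The fits were checked on simulated data with planted changes. In the Zeb2 set 1% of 2-fold and 71% of 8-fold changes were recovered, and in the Zeb2os set 18% and 75%. Against sham, recovery of 2-fold changes was 26%, 15% and 13% at 7 days, 1 month and 3 months, and in tissue 68%. False calls were 9 of 81 in the Zeb2 set, 7 of 100 in the Zeb2os set and 14 of 179 in tissue. Against sham they were 9 of 99, 6 of 83 and 4 of 77. Members and lists were chosen with earlier results of these data known. The rule for named genes was, in each list, called genes first, by size of change, up to 4, then any member, the annotated neighbours within 1.5 Mb, and the 5 genes most like each member in pattern, of which 1 is not reported here. Cdh1, Cldn4, Cdh11, Smad6 and Esam were picked from their lists after their values were seen.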

Additional observations from a re-analysis of the deposited data

How the results depend on the processing

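Zeb2 kept its direction and call at 7 days and 1 month against sham under all 11 alternatives each, and against tissue under all 8 and 7. In fits of the 2 groups alone, calls at 3 months (Zeb2 0.98, Zeb2os 1.36), 7 days (Zeb2os 0.95) and 1 month (Zeb2os 1.04) were lost. Log2 changes over the fits that left out 1 library ran from 0.72 to 1.22 for Zeb2os at 7 days, 0.78 to 1.30 at 1 month, 0.75 to 1.15 for Zeb2 at 3 months and 0.66 to 0.84 for Zeb2os of sorted cells against tissue at 1 month. Differences near 0 changed sign: Zeb2 at 1 month against 7 days (0.0015 with RLE factors, 0.0016 with DESeq2, 0.016 in the 2 groups alone; -0.18 to 0.11 leaving out 1 library) and at 3 months against 7 days (-0.25 to 0.068), Zeb2os at 1 month against 7 days (-0.0072 to 0.19), Zeb2 in tissue (-0.055 to 0.10) and Zeb2 in the Zeb2os set (-0.38 to 0.063). The correlation ran from -0.35, without 7-day replicate 3, to 0.38. The Zeb2 change in its own knockdown was called with no filter (-2.82), with DESeq2 (-2.82) and with the replicate block (-2.85), and ran from -3.11 to -2.60 leaving out 1 library; the difference between the culture sets passed with DESeq2 (-2.61) and the block (-2.65) and ran from -2.89 to -2.35. The cause of these shifts was not tested.

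Numbers of genes called moved more than the 2 genes did. With no filter they were 1406, 2464 and 749 for 1 month against 7 days, 3 months against 7 days and 3 months against 1 month, and 625 and 142 in the Zeb2os and Zeb2 cultures. DESeq2 called 4406 and 4595 at 1 and 3 months against sham, 1742, 2764 and 851 between injured times, and 539 and 33 in the Zeb2os and Zeb2 sets. The 2 groups alone gave 885 at 3 months against sham and 3560, 3763 and 1277 between injured times. Leaving out 1 library gave 2867 to 5504, 1727 to 3471 and 1189 to 3540 against sham, 122 to 218, 408 to 823 and 7 to 52 between injured times, 305 to 5980 for tissue, 20 to 4354 for the Zeb2os cultures and 2 to 811 for the Zeb2 cultures. Where an arm kept 1 library, it was assumed to vary like the others.

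Same-numbered libraries of different groups had deviations correlated at -0.044 to 0.081 in sorted cells, -0.274 to -0.011 in tissue, and -0.026 and 0.391 in the Zeb2os and Zeb2 cultures, and 6 of 11 sorted, 0 of 6 tissue, 0 of 4 Zeb2os-set and 4 of 4 Zeb2-set libraries correlated best with their own number. The Zeb2 set, where the block gave the call of Zeb2, is thus the exception, but with 2 pairs this is a hint from the data only, and the numbers were not taken to pair the samples. The replicate block gave 506 calls for tissue and 554 and 79 for the Zeb2os and Zeb2 cultures, and apart from the calls of Zeb2 above changed no call of either gene. Zeb2os rested on 108 to 666 counts in the cultures, and the intervals of its change there (-1.16 to 0.43 and -1.57 to 0.54) set what could be detected.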
